A study of Mus musculus with 6 samples.

Results

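Ferroptosis is an iron-dependent form of cell death in which peroxides of polyunsaturated phospholipids build up in membranes. Enzymes such as ACSL4, ACSL3 and LPCAT3 decide which fatty acids enter those phospholipids, whereas GPX4, FSP1 (encoded by *Aifm2*), GTP cyclohydrolase 1 and DHODH keep lipid peroxides low by separate routes. VDAC2 and VDAC3, channels of the outer mitochondrial membrane, are known as binding partners of erastin, a compound that triggers ferroptosis. The mRNAs of these 9 genes (*Gpx4*, *Acsl4*, *Acsl3*, *Lpcat3*, *Aifm2*, *Gch1*, *Dhodh*, *Vdac2* and *Vdac3*) were taken by name from the deposited table of 54532 mouse genes. All 9 were found once each, and all 9 passed the filter on low counts that left 15307 genes for testing.

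The libraries came from MLE12 cells, a line of mouse lung alveolar epithelial cells whose strain is recorded as C57BL/6J. The 3 Ctrl shRNA samples were infected with a control lentivirus, described as an empty vector, at a multiplicity of infection (MOI) of 50. The 3 knockdown samples received an Idh3α-silencing and an Slc25a1-silencing lentivirus together, each at an MOI of 50. As described, the knockdown cells thus received more virus as well as 2 silencing constructs, and these cannot be told apart. The cells were given new medium after 16 h and kept for a further 80 h, and the time at which RNA was taken is not stated. Idh3α is the catalytic subunit of a mitochondrial isocitrate dehydrogenase, and Slc25a1 is the carrier that exports citrate from mitochondria. The study used the double knockdown to raise mitochondrial citrate and measured GPX4 and ACSL4 protein as ferroptosis markers, and the comparison asks whether the mRNAs of this pathway differed between the groups. No label says whether the 3 samples of a group were separate cultures, and p-values measure the spread between these samples only, which may be technical.

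Total counts were 27273502 to 28535653 per library. The targeted *Idh3a* mRNA averaged 103 CPM (the share of a gene in the counts of its library, scaled by TMM factors) in Ctrl shRNA and 57.3 CPM in knockdown cells, and *Slc25a1* averaged 103 and 67.2 CPM. Without Ctrl shRNA replicate 2 both were lower in the knockdown (adjusted p = 0.0142 and 0.00649, Benjamini-Hochberg adjusted over all genes, from the quasi-likelihood test of edgeR), and with all libraries neither passed in edgeR (adjusted p = 0.254 and 0.104), while DESeq2 called both (adjusted p = 0.0205 and 5.8e-06). Ctrl shRNA replicate 2 stood apart from the other 5 libraries. It had counts on 16681 genes against 19902 to 23147, and mitochondrially encoded genes held 6.49% of its counts against 1.57% to 1.80%. Tests below are therefore given with and without it. Of 8 alveolar type 2 markers, *Nkx2-1* (6397 to 10615 counts), *Abca3* (2181 to 4372) and *Sftpc* (808 to 1922) were well covered in each library, while *Sftpd* had 0 counts in all 6 and *Sftpa1* had at most 2. *Sftpc*, which encodes surfactant protein C, fell by 0.65 on the log2 scale without Ctrl shRNA replicate 2 (adjusted p = 0.0438, edgeR) and had a value of -1.07 with all libraries (adjusted p = 0.315). The summed level of the 8 markers was 524 to 532 CPM in Ctrl shRNA and 441 to 471 CPM in knockdown cells, without overlap. That of 5 general epithelial markers, mostly *Krt19* and *Krt8*, was 1051 to 1185 CPM and 1184 to 1296 CPM. Among them *Krt18* had at most 16 counts. *Epcam*, with 71 to 124 counts, went the other way, at -0.40 on the log2 scale with and without Ctrl shRNA replicate 2 (adjusted p = 0.375 and 0.320, edgeR). Of 4 leukocyte markers, *Ptprc* had 0 counts in all 6 libraries and *Cd3e* at most 18, whereas *Cd14* had 113 to 161 and *Cd68* 38 to 81, and their sum was 5.39 to 10.1 CPM in Ctrl shRNA and 7.05 to 7.38 CPM in knockdown cells. The sum of 6 endothelial and fibroblast markers, mostly *Dcn*, was 346 to 1233 CPM in Ctrl shRNA, highest in replicate 2, and 317 to 345 CPM in knockdown cells. The part of these markers in the results below was not tested, and in bulk RNA a change in the number of cells of a type and in the RNA per cell cannot be told apart.

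None of the 9 genes was called at an adjusted p under 0.05, either with all 6 libraries or without Ctrl shRNA replicate 2. The background share of called genes was 0.0653% of 15307 genes with all libraries and 1.79% of 15709 genes without that library. At an unadjusted p under 0.05, edgeR counted 0 of the 9 genes with all libraries, against 14.1% of all genes tested, and 1 of the 9 (*Lpcat3*) without Ctrl shRNA replicate 2, against 19.9%. DESeq2 also called 0 of the 9 with all libraries (2.51% of all genes) and 0 without Ctrl shRNA replicate 2 (6.58%). Limma with sample quality weights, which gave that replicate the lowest weight, called 0 of the 9 where it called 15.0% of all genes. The median log2 fold change of the 9 genes was -0.072 with all libraries, against -0.0092 over all genes tested. Without Ctrl shRNA replicate 2 it was -0.085 against -0.015. In that smaller fit, the 95% interval of every one of the 9 genes lay between -0.45 and 0.31 on the log2 scale, that is, between 0.734-fold and 1.24-fold.

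**Figure D1:**
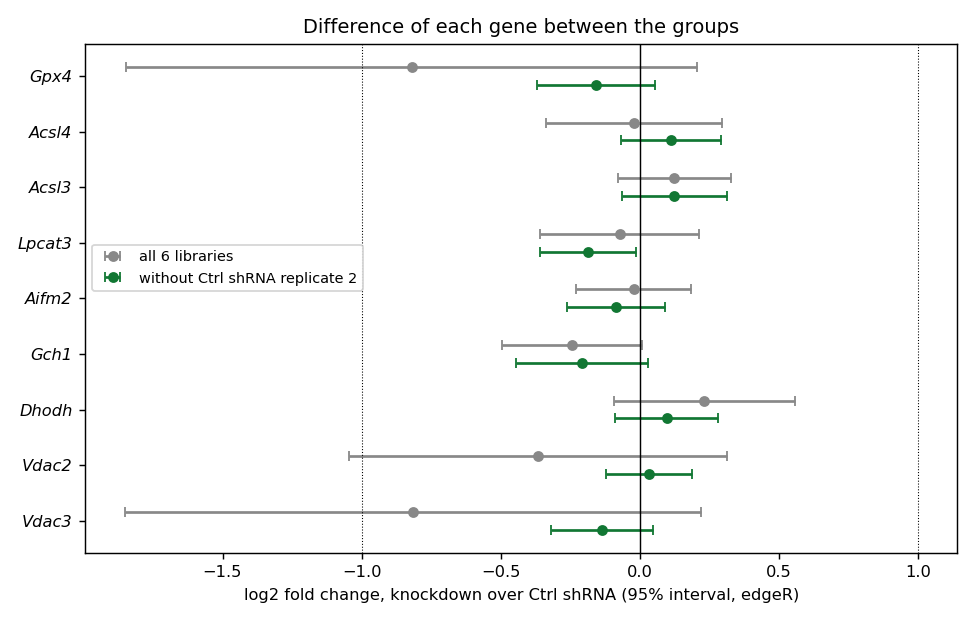
Log2 fold change of the 9 ferroptosis genes, knockdown over Ctrl shRNA, with 95% intervals from edgeR's quasi-likelihood fit. Grey points use all 6 libraries and green points leave out Ctrl shRNA replicate 2, and dotted lines mark 2-fold changes. The intervals of *Gpx4* and *Vdac3* span 2.05 and 2.07 log2 units in grey and 0.43 and 0.36 in green, and 1 of the green intervals, that of *Lpcat3*, lies wholly on one side of 0.

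*Gpx4* (ENSMUSG00000075706, GRCm38 chromosome 10, 80047166 to 80056439, plus strand) encodes glutathione peroxidase 4, the enzyme that reduces phospholipid hydroperoxides with glutathione. It is a selenoprotein, in which a TGA codon that would usually end translation is read as selenocysteine, the residue of its active site. In the principal GENCODE transcript this is codon 73 of 197, in exon 3 of 7. It is the only internal stop codon of the transcript, and the principal transcripts of the other 8 genes held 0. The 30 bases around it, with the TGA codon in capitals, are shown because this codon ties *Gpx4* to the selenoprotein synthesis genes described further on.
Gpx4, chr10:80054725-80054754, plus strand: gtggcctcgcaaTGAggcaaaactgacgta

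*Gpx4* stood at 288, 885 and 348 CPM in the Ctrl shRNA libraries (replicates 1, 2 and 3 in this order, here and below), against 307, 273 and 282 CPM in the knockdown libraries. Ctrl shRNA replicate 2 was 2.78 times the mean of the other 2 controls, and knockdown replicate 1 lay between those 2 controls, so that the groups overlapped. The means were 507 ± 329 CPM in Ctrl shRNA and 287 ± 17.8 CPM in knockdown cells (SD, n = 3 each). The log2 fold change was -0.82 (SE 0.42, 95% interval -1.85 to 0.21, adjusted p = 0.384 from edgeR's test). Leaving out Ctrl shRNA replicate 2 brought it to -0.16 (SE 0.09, interval -0.37 to 0.06, adjusted p = 0.382), with a control mean of 318 CPM. The size of the difference in *Gpx4* mRNA therefore came largely from that single control library. The exact permutation test over samples gave p = 0.2 with all libraries, where 3 against 3 cannot go below 0.1, and p = 0.4 without that library, where 2 against 3 cannot go below 0.2 (two-sided).

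The *Gpx4* count is uncertain for a further reason. Of all 50-base windows of its principal transcript, 68.9% also occur in transcripts of other annotated genes, among them the processed pseudogene *Gpx4-ps2* (chromosome 10, 45875291 to 45876086). The table lists 1468, 3006 and 1538 counts for *Gpx4-ps2* in the Ctrl shRNA replicates and 1435, 1631 and 1359 in the knockdown replicates. These were 15.4% to 19.7% of the *Gpx4* count in the same library, and the pseudogene, like its parent, was highest in Ctrl shRNA replicate 2. How the counting divided such reads is not stated. When the pseudogene counts were added to *Gpx4*, an alternative chosen after seeing the data, the log2 fold change was -0.81 with all libraries and -0.13 without Ctrl shRNA replicate 2, and edgeR gave adjusted p of 0.387 and 0.429.

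*Acsl4*, *Acsl3* and *Lpcat3* encode enzymes that decide which fatty acids enter phospholipids. *Acsl4* (ENSMUSG00000031278, chromosome X, 142317993 to 142390535, minus strand) encodes the acyl-CoA synthetase that activates arachidonic and adrenic acid. It stood at 51.3, 67.8 and 51.6 CPM in the Ctrl shRNA libraries, against 53.1, 55.0 and 60.0 CPM in the knockdown libraries. Here too Ctrl shRNA replicate 2 was the highest of the 6 libraries, and each knockdown library lay above the other 2 controls. The log2 fold change was -0.022 (SE 0.13, interval -0.34 to 0.29, adjusted p = 0.947 from edgeR's test) and turned to 0.11 (SE 0.08, interval -0.07 to 0.29, adjusted p = 0.454) without Ctrl shRNA replicate 2. With all libraries, the means of 56.9 ± 9.43 and 56.0 ± 3.55 CPM (SD, n = 3 each) differed by less than either spread.

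*Acsl3* (ENSMUSG00000032883, chromosome 1, 78657825 to 78707743, plus strand) encodes a related synthetase that is known for activating monounsaturated fatty acids, which are poor substrates for peroxidation. Its levels were 64.9, 70.4 and 73.4 CPM in the Ctrl shRNA libraries, against 73.4, 81.2 and 72.9 CPM in the knockdown libraries. For this gene Ctrl shRNA replicate 2 lay between the other 2 controls, and the knockdown replicates 1 and 3 were level with the highest control. The log2 fold change was 0.12 in both fits, with intervals of -0.08 to 0.33 and -0.07 to 0.31 and edgeR gave adjusted p of 0.465 and 0.438. *Acsl3* and *Utp14b* overlap by 13475 bases on the same strand, and 4.05% of the 50-base windows of the *Acsl3* transcript also occur in *Utp14b*. The coding sequences of *Acsl3* and *Acsl4* were identical at 65.1% of 2186 aligned positions, with no identical run over 21 bases.

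*Lpcat3* (ENSMUSG00000004270, chromosome 6, 124663027 to 124704418, plus strand) encodes the acyltransferase that places polyunsaturated acyl chains into lysophospholipids. It stood at 95.3, 80.3 and 108 CPM in the Ctrl shRNA libraries, against 92.6, 91.4 and 85.7 CPM in the knockdown libraries. Ctrl shRNA replicate 2 was the lowest of all 6 libraries, opposite to *Gpx4*, and the other 2 controls were above all 3 knockdown libraries. With all libraries the log2 fold change was -0.072 (SE 0.12, interval -0.36 to 0.21, adjusted p = 0.776 from edgeR's test). Without Ctrl shRNA replicate 2 it was -0.19 (SE 0.08, interval -0.36 to -0.01), with an unadjusted p of 0.0374 and an adjusted p of 0.223 in edgeR's fit across all genes. *Lpcat3* and *Emg1*, on the opposite strand, overlap by 334 bases at similar mean counts (2617 and 2771). Because the use of strand in counting is not stated, reads of the overlap cannot be assigned to one of them, and 12.8% of the 50-base windows of *Lpcat3* are shared with *Emg1*.

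**Figure D2:**
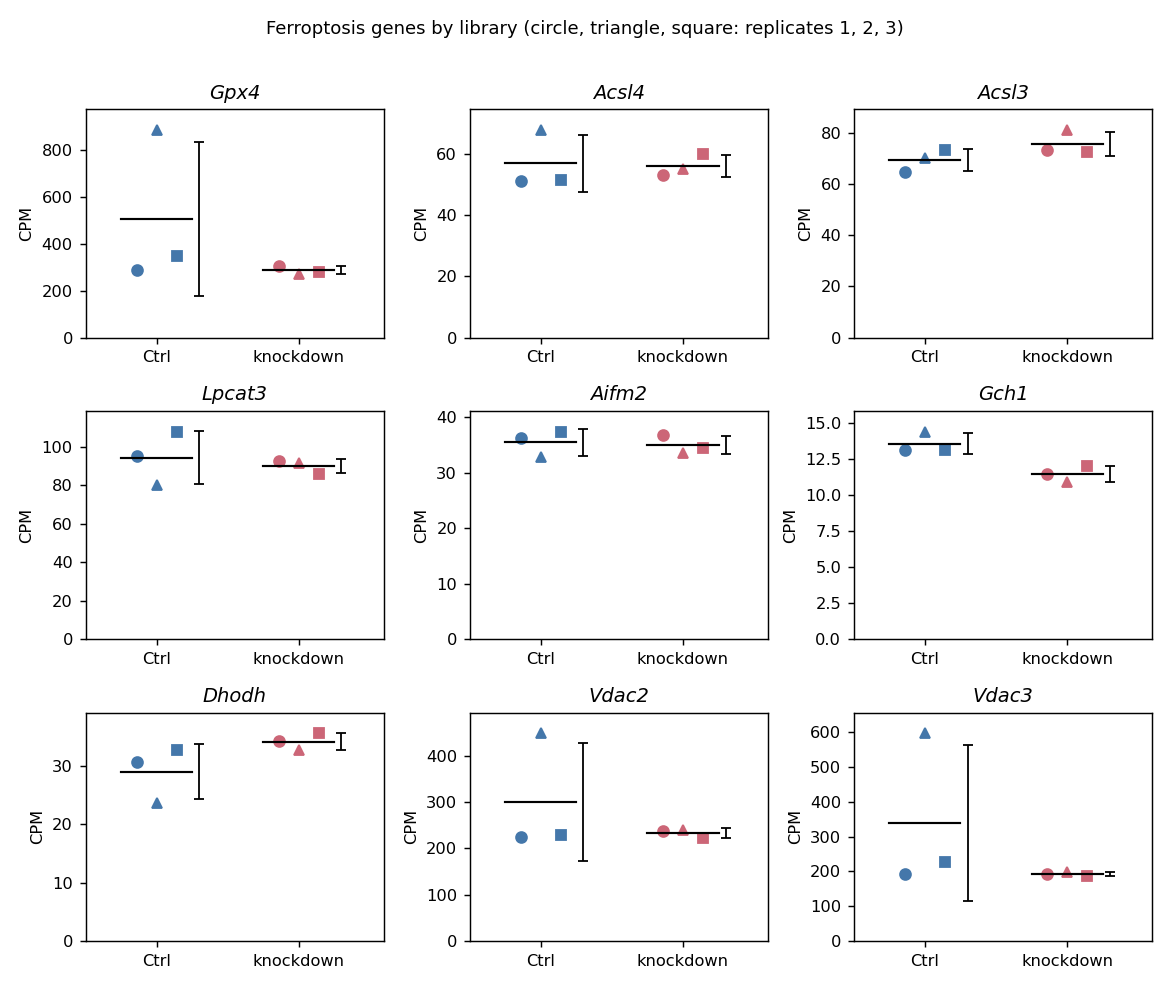
CPM of each ferroptosis gene in every library, with Ctrl shRNA in blue and knockdown in red. Circles, triangles and squares are replicates 1, 2 and 3, horizontal lines are group means and bars are 1 SD (n = 3). The triangle of Ctrl shRNA stands at 885 CPM for *Gpx4*, 449 CPM for *Vdac2* and 597 CPM for *Vdac3*, above all other libraries, and at 80.3 CPM for *Lpcat3* and 23.6 CPM for *Dhodh*, below all others.

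*Aifm2*, *Gch1* and *Dhodh* act beside GPX4, each through a lipid-soluble antioxidant or its precursor. *Aifm2* (ENSMUSG00000020085, chromosome 10, 61715263 to 61739260, plus strand) encodes FSP1, which reduces coenzyme Q at the plasma membrane. Its levels were 36.3, 32.8 and 37.4 CPM in the Ctrl shRNA libraries, against 36.8, 33.6 and 34.5 CPM in the knockdown libraries. These 6 values span the narrowest range of the 9 genes relative to their mean, and the groups overlapped. The log2 fold change was -0.022 (interval -0.23 to 0.19, adjusted p = 0.914 from edgeR's test) with all libraries and -0.085 (interval -0.26 to 0.092, adjusted p = 0.577) without Ctrl shRNA replicate 2.

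*Gch1* (ENSMUSG00000037580, chromosome 14, 47153895 to 47189413, minus strand) encodes GTP cyclohydrolase 1, the first enzyme of tetrahydrobiopterin synthesis. It was the least abundant of the 9 genes, with 284 to 406 counts per library. It stood at 13.1, 14.4 and 13.1 CPM in the Ctrl shRNA libraries, against 11.4, 10.9 and 12.0 CPM in the knockdown libraries. With all libraries, *Gch1* was the only one of the 9 genes whose groups did not overlap, at a background where 25.4% of all genes tested had groups that did not overlap. The exact permutation test gave p = 0.1 (two-sided), the smallest that 3 samples against 3 allow. The means were 13.5 ± 0.720 and 11.4 ± 0.547 CPM (SD, n = 3 each), a log2 fold change of -0.24 (SE 0.10, interval -0.49 to 0.01, adjusted p = 0.357 from edgeR's test). Without Ctrl shRNA replicate 2 it was -0.21 (SE 0.10, interval -0.45 to 0.03, adjusted p = 0.308), so this difference, unlike that of *Gpx4*, hardly moved with that library. In the smaller set of libraries, *Gch1*, *Lpcat3* and *Acsl4* had groups without overlap, 3 of the 9 genes, against 37.6% of all genes tested.

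*Dhodh* (ENSMUSG00000031730, chromosome 8, 109591343 to 109608673, minus strand) encodes dihydroorotate dehydrogenase, the enzyme of pyrimidine synthesis that passes electrons to coenzyme Q in the inner mitochondrial membrane. It stood at 30.6, 23.6 and 32.8 CPM in the Ctrl shRNA libraries, against 34.2, 32.6 and 35.5 CPM in the knockdown libraries. Ctrl shRNA replicate 2 was the lowest library, and knockdown replicate 2 lay just under the highest control. The log2 fold change was 0.23 (SE 0.13, interval -0.09 to 0.56, adjusted p = 0.410 from edgeR's test) with all libraries and 0.097 (SE 0.08, interval -0.089 to 0.28, adjusted p = 0.541) without that replicate.

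*Vdac2* (ENSMUSG00000021771, chromosome 14, 21825238 to 21845879, plus strand) and *Vdac3* (ENSMUSG00000008892, chromosome 8, 22577075 to 22593813, minus strand) encode channels through which metabolites, citrate among them, cross the outer mitochondrial membrane. *Vdac2* stood at 225, 449 and 229 CPM in the Ctrl shRNA libraries, against 238, 241 and 222 CPM in the knockdown libraries. *Vdac3* stood at 194, 597 and 226 CPM in the Ctrl shRNA libraries, against 194, 198 and 186 CPM in the knockdown libraries. In both genes Ctrl shRNA replicate 2 was far above the other 5 libraries, at 1.98 and 2.84 times the mean of the other 2 controls, and those other 5 libraries overlapped. The log2 fold change of *Vdac2* was -0.37 (interval -1.04 to 0.31, adjusted p = 0.516 from edgeR's test) with all libraries and 0.033 (interval -0.12 to 0.19, adjusted p = 0.822) without that replicate. That of *Vdac3* was -0.82 (interval -1.85 to 0.22, adjusted p = 0.386 from edgeR's test) and -0.14 (interval -0.32 to 0.05, adjusted p = 0.376).

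*Vdac3* shares 53.5% of its 50-base windows with other annotated genes, among them the pseudogenes *Vdac3-ps1* and *Gm7591*, which were listed at 14.4% to 15.9% and 1.5% to 2.36% of the *Vdac3* count. With their counts added, also chosen after seeing the data, the log2 fold change of *Vdac3* was -0.82 with all libraries and -0.14 without Ctrl shRNA replicate 2. The corresponding share of windows was 10.3% for *Vdac2* and 0 for *Acsl4*, *Aifm2*, *Gch1* and *Dhodh*. *Vdac2* and *Vdac3* themselves were identical at 69.3% of 888 aligned coding positions, with no identical run over 15 bases.

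The 9 genes thus differed in how they behaved in Ctrl shRNA replicate 2, and transcript length moved with that behaviour. Across 12582 tested protein-coding genes, the log2 difference between this library and the mean of the other 2 controls had a median of 0.59 in the first of 5 equal groups of genes by length of the principal transcript, the shortest (156 to 1734 bases). The median was -0.16 in the group with the longest (at least 4966 bases). *Gpx4* (959 bases) and *Vdac3* (1354 bases) belong to the shortest group. Their differences of 1.48 and 1.51 stood at percentiles 74.7 and 75.6 of it, inside the range of genes of like length. *Vdac2*, with 1954 bases and a difference of 0.99, stood at percentile 88.7 of its group. *Acsl4* has the longest transcript of the 9 (5280 bases), and its difference of 0.40 stood at percentile 92.8 of its group. *Dhodh* and *Lpcat3*, of 2039 and 2281 bases, lay low in theirs, at percentiles 16.7 and 21.2, with differences of -0.42 and -0.34. The part of RNA quality or library preparation in this deviation was not tested.

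**Figure D3:**
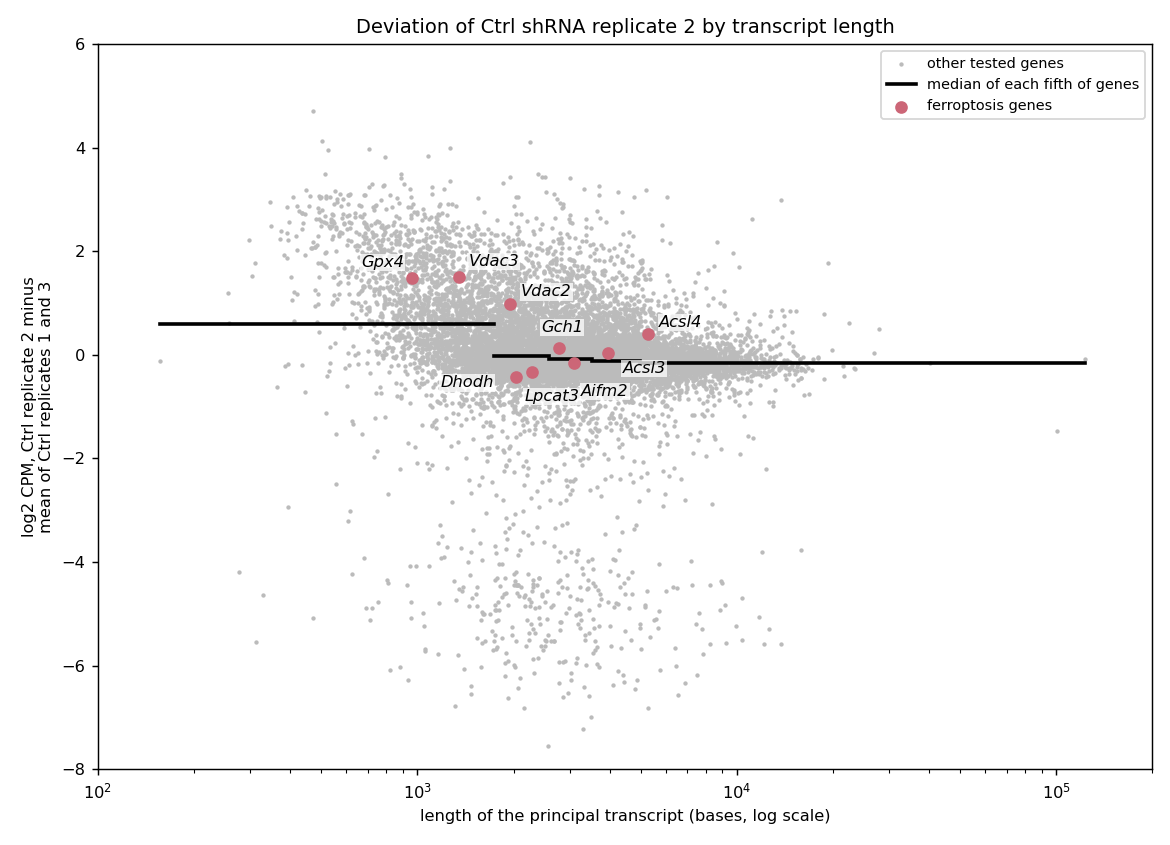
Log2 CPM of Ctrl shRNA replicate 2 minus the mean of Ctrl shRNA replicates 1 and 3, against the length of the principal transcript on a log scale. Each grey point is a tested protein-coding gene, red points are the ferroptosis genes, and black lines are the medians of 5 groups of genes by length, from 0.59 for the shortest to -0.16 for the longest. *Gpx4*, *Vdac3* and *Vdac2* lie at 1.48, 1.51 and 0.99, and *Dhodh* lies lowest at -0.42.

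For *Gpx4* and *Acsl4*, the genes of like pattern were sought among 9589 other genes with a mean of at least 10 CPM, by the root-mean-square difference in log2 CPM after centring over the 6 libraries. Nearest to *Gpx4* were *Malsu1* (0.023), *Psenen* (0.025) and *Sdhb* (0.032). All 3 had their highest value in Ctrl shRNA replicate 2, for instance 303 CPM for *Sdhb* against 89.1 to 118 CPM in the other libraries. Nearest to *Acsl4* were *Haus2* (0.033), *St7* (0.046) and *Zfp655* (0.047), whose highest value was likewise in that replicate. The likeness to these genes rests on 6 libraries and mainly on 1 of them.

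Levels were compared between the genes per length (RPKM, the CPM divided by the length in kilobases), using the lengths in the deposited table. In knockdown cells, where the spread was small, the order was *Gpx4* (167 ± 10.3 RPKM), *Vdac2* (48.9 ± 2.09), *Vdac3* (35.5 ± 1.16), *Lpcat3* (27.5 ± 1.12), *Acsl3* (17.4 ± 1.08), *Acsl4* (10.4 ± 0.656), *Aifm2* (8.48 ± 0.394), *Dhodh* (5.39 ± 0.230) and *Gch1* (1.83 ± 0.0875, all SD, n = 3), and no neighbours in it had overlapping values. In Ctrl shRNA cells the same order held by mean, but *Vdac2* and *Vdac3* stood at 63.0 ± 26.9 and 62.6 ± 41.3 RPKM (SD, n = 3) and could not be told apart. The order also depended on the length used. With the principal transcript in place of the deposited length, *Vdac3* in knockdown cells stood at 142 RPKM, above *Vdac2* at 119 RPKM, and *Dhodh* at 16.7 RPKM moved above *Aifm2* (11.3) and *Acsl4* (10.6). By its mean RPKM over the 6 libraries *Gpx4* was at percentile 98.7 of all genes tested, and *Gch1* was at percentile 31.7.

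Ratios of 2 genes within a library do not depend on how libraries are scaled, but their size depends on the lengths used. With the deposited lengths, the RPKM of *Gpx4* was 17.6, 41.0 and 21.2 times that of *Acsl4* in the Ctrl shRNA replicates and 18.1, 15.5 and 14.7 times in the knockdown replicates. With principal transcript lengths it was 30.9, 71.9 and 37.2 times in the Ctrl shRNA replicates and 31.9, 27.3 and 25.9 times in the knockdown replicates. Knockdown replicate 1 again lay between Ctrl shRNA replicates 1 and 3, an order of libraries that the choice of length cannot change. *Acsl3* over *Acsl4*, the balance between the synthetase for monounsaturated and that for polyunsaturated acids, was 1.57, 1.29 and 1.77 in the Ctrl shRNA replicates and 1.72, 1.83 and 1.51 in the knockdown replicates with the deposited lengths, and the groups overlapped. *Vdac2* over *Vdac3* was 1.32, 0.855 and 1.15 in the Ctrl shRNA replicates and 1.39, 1.38 and 1.36 in the knockdown replicates with the deposited lengths. With principal transcript lengths it was 0.803, 0.521 and 0.699 in the Ctrl shRNA replicates and 0.850, 0.842 and 0.829 in the knockdown replicates, so that which gene was the more abundant turned with the length used in all libraries but Ctrl shRNA replicate 2. The ratio was higher in each knockdown replicate than in each Ctrl shRNA replicate, which again cannot depend on the length. It is given as a description, since the part of the pseudogene reads of *Vdac3* in it was not tested, nor how often other pairs of genes differ so.

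Around these 9 genes, 102 others were listed in 10 groups by their role, and 90 of them had enough counts to be tested. With all libraries edgeR called 1 of the 90, *Tfrc*, against 0.0653% of all genes tested. DESeq2 called 12, against 2.51% of all genes, and limma with quality weights 20, against 15.0%. Without Ctrl shRNA replicate 2, 7 were higher and 2 were lower, against 1.11% and 0.675% of all genes in those directions, by edgeR. The lists were written with earlier results of these data known, so these counts are a description and not a test of the groups. The 7 higher and 2 lower genes were also called with all libraries by limma with quality weights. That fit gave Ctrl shRNA replicate 2 a weight of 0.10, against 0.62 to 3.19 for the other libraries, and so comes close to leaving it out. DESeq2 with all libraries called all of them but *Tomm40*. The other 4 that DESeq2 called there were *Gclc*, and *Cth*, *Acsl5* and *Slc39a14*, which are named after their values were seen. *Slc39a14* encodes a zinc and iron transporter (log2 fold change 0.36, adjusted p = 0.0494 from DESeq2 and 0.245 from edgeR). Not called, below, refers to edgeR unless another tool is named, and counts at an unadjusted p under 0.05 are to be read against 14.1% of all genes with all libraries and 19.9% without that replicate. The median log2 fold change of the 90 genes in edgeR was 0.05 with all libraries and 0.04 without that replicate.

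In tetrahydrobiopterin synthesis and recycling, the group around *Gch1*, none of 7 genes was called by edgeR in either fit, with 0 and 1 gene at an unadjusted p under 0.05 and medians of -0.65 and -0.15 with and without Ctrl shRNA replicate 2. *Spr*, sepiapterin reductase, was lowest in Ctrl shRNA replicate 2, at 21.7 CPM against 30.1 to 37.7 CPM in the other 5 libraries, and had a log2 fold change of 0.16 with all libraries and -0.037 without that one (adjusted p = 0.702 and 0.883, edgeR). It was the 1 positive value with all libraries, where 6 of the 7 genes were negative, against 7847 of 15307 genes tested. Without that replicate 7 of 7 were negative, against 8275 of 15709. In coenzyme Q synthesis, which supplies the electron carrier of FSP1 and DHODH, none of 14 genes was called by edgeR in either fit, against 2 of 14 at an unadjusted p under 0.05 in each. *Coq5*, a methyltransferase of that pathway, had log2 fold changes of 0.18 with all libraries and 0.13 without Ctrl shRNA replicate 2 (adjusted p = 0.356 and 0.359, edgeR).

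Among the other acyl-CoA synthetases and phospholipid-remodelling enzymes, none of 11 was called by edgeR, with 2 of 11 at an unadjusted p under 0.05 in either fit. *Lpcat1* and *Agpat3*, acyltransferases of phospholipid synthesis and the most abundant of them, had log2 fold changes of 0.076 and -0.094 without Ctrl shRNA replicate 2 (adjusted p = 0.523 and 0.465, edgeR), and of 0.25 and 0.042 with all libraries (adjusted p = 0.442 and 0.887). All 11 values were positive with all libraries (median 0.17), and 8 of 11 without that replicate (median 0.089). *Lpcat4* and *Acsl5*, named here after their values were seen, had the lowest adjusted p, with log2 fold changes of 0.43 and 0.33 without that replicate (adjusted p = 0.0632 and 0.0505, edgeR). With all libraries they had values of 0.56 and 0.37 (adjusted p = 0.275 and 0.203), and DESeq2 called *Acsl5* there (adjusted p = 0.0158) but not *Lpcat4* (adjusted p = 0.0765). None of 9 genes of polyunsaturated fatty acid and ether lipid synthesis was called by edgeR (0 and 2 at an unadjusted p under 0.05). The desaturases *Scd2* and *Scd1*, which make monounsaturated acids, led it by level, with log2 fold changes of 0.31 and 0.11 with all libraries (adjusted p = 0.354 and 0.545, edgeR) and 0.24 and 0.070 without that replicate (adjusted p = 0.0989 and 0.611).

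Most lipoxygenases, the enzymes that can oxidize polyunsaturated lipids directly, were barely detected. *Alox12b* and *Alox12e* had 0 counts in every library, and *Alox5*, *Alox8*, *Alox12* and *Alox15* had at most 5. Of 13 listed genes of lipid oxygenation 5 could be tested and none was called by edgeR in either fit, nor at an unadjusted p under 0.05. *Por*, the cytochrome P450 reductase, had a log2 fold change of 0.0012 and *Pebp1*, a lipoxygenase-binding protein, one of -0.080 without Ctrl shRNA replicate 2 (adjusted p = 0.996 and 0.664, edgeR). With all libraries the values were 0.029 and 0.035 (adjusted p = 0.886 and 0.911).

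**Figure D4:**
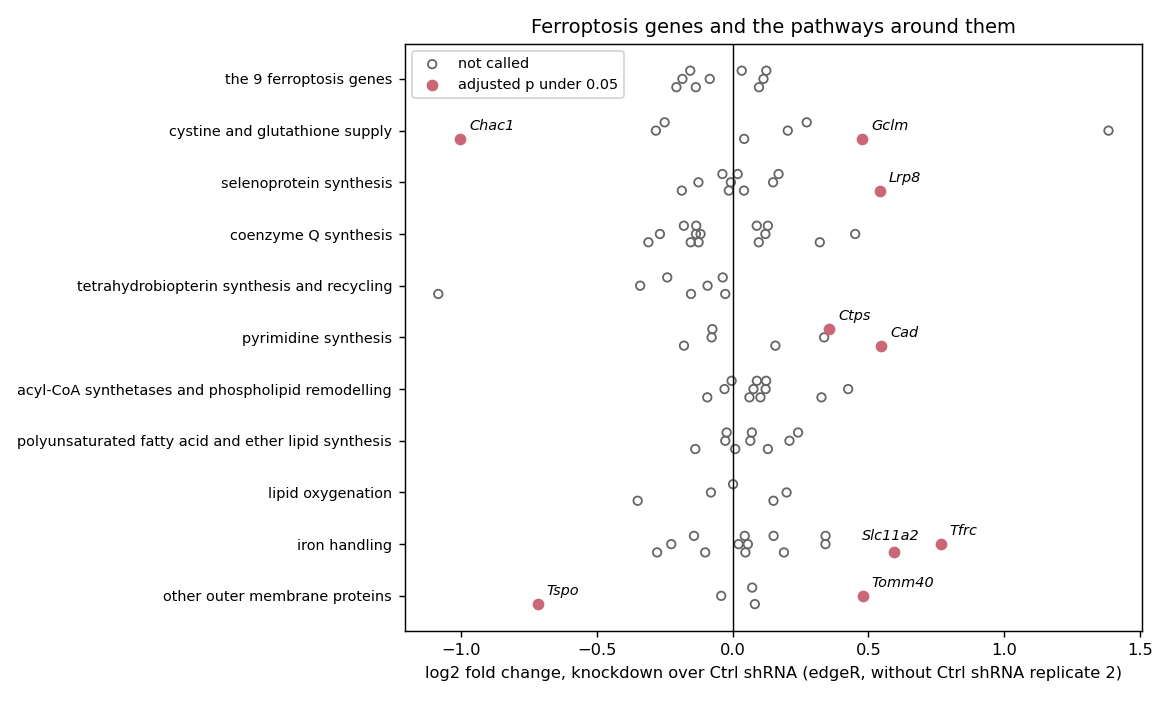
Log2 fold change of the 9 ferroptosis genes and of 10 groups of related genes, knockdown over Ctrl shRNA, from edgeR without Ctrl shRNA replicate 2. Each circle is a gene, and filled circles are genes at an adjusted p under 0.05. The 9 genes lie between -0.21 and 0.12, and 7 filled circles lie to the right and 2 to the left of 0.

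Calls were made in the supply of glutathione, selenium, pyrimidines and iron. Without Ctrl shRNA replicate 2, edgeR called 1 higher and 1 lower of 8 genes tested for glutathione. It called 1 of 10 for selenium, 2 of 7 for pyrimidines and 2 of 14 for iron, all higher. At an unadjusted p under 0.05 it counted 4 higher and 2 lower, 1 higher, 4 higher, and 4 higher and 2 lower in these groups. *Gclm*, the modifier subunit of the enzyme that starts glutathione synthesis, stood at 75.4, 82.0 and 75.9 CPM in the Ctrl shRNA libraries, against 103, 111 and 104 CPM in the knockdown libraries. It rose by a log2 fold change of 0.48 without Ctrl shRNA replicate 2 (SE 0.07, adjusted p = 0.0155, edgeR), and had an adjusted p of 0.174 with all libraries. *Gclc*, the catalytic subunit, and *Gsr*, glutathione reductase, had log2 fold changes of 0.27 and 0.20 (adjusted p = 0.0804 and 0.173, edgeR) without that library, and of 0.32 and 0.29 with it (adjusted p = 0.245 and 0.340). DESeq2 with all libraries called *Gclc* (adjusted p = 0.0290) and not *Gsr* (adjusted p = 0.222). *Cth*, which makes cysteine from cystathionine, had few counts, 18, 9 and 14 in the Ctrl shRNA libraries against 51, 40 and 36 in the knockdown libraries. Its log2 fold change of 1.46 with all libraries (SE 0.32) was called by DESeq2 (adjusted p = 0.0222) and not by edgeR (adjusted p = 0.243), and it was 1.38 without Ctrl shRNA replicate 2 (adjusted p = 0.0878, edgeR). *Chac1*, which degrades glutathione, stood at 20.0, 16.6 and 19.5 CPM in the Ctrl shRNA libraries, against 10.1, 11.1 and 8.53 CPM in the knockdown libraries. It fell by 1.00 on the log2 scale (SE 0.12, adjusted p = 0.0115, edgeR) without Ctrl shRNA replicate 2, with an adjusted p of 0.155 with all libraries. *Slc7a11*, the cystine transporter blocked by erastin and named here after its values were seen, had a log2 fold change of -0.25 without that library (interval -0.58 to 0.079, adjusted p = 0.369, edgeR) and -0.35 with it (adjusted p = 0.367). *Slc3a2*, of the same group and also named after its values were seen, was not called either. Its log2 fold change was -0.28 without that library and -0.21 with it (adjusted p = 0.0717 and 0.352, edgeR), and the knockdown libraries lay below all 3 controls.

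In selenoprotein synthesis, which the codon of *Gpx4* shown above depends on, 1 of 10 genes was called without Ctrl shRNA replicate 2. This was *Lrp8*, a receptor for the selenium carrier selenoprotein P, with a log2 fold change of 0.54 (SE 0.09, adjusted p = 0.0276, edgeR, and 0.174 with all libraries). *Sephs1* and *Trnau1ap*, the most abundant of the group, had values of -0.014 and -0.13 (adjusted p = 0.927 and 0.508), and of -0.013 and -0.16 with all libraries (adjusted p = 0.939 and 0.451). Next to *Dhodh* in pyrimidine synthesis, *Cad*, which carries out the first steps of the pathway, and *Ctps*, which makes CTP, rose by 0.55 and 0.36 on the log2 scale without that replicate (SE 0.08 and 0.06, adjusted p = 0.0209 and 0.0358, edgeR). With all libraries they had values of 0.63 and 0.37 and were not called by edgeR (adjusted p = 0.174 and 0.179), but were by DESeq2 (adjusted p = 0.00157 and 0.000383). *Dhodh* itself, at 0.097, was not called. *Uck2*, a uridine-cytidine kinase, had a value of 0.34 and an adjusted p of 0.0507 from edgeR, and of 0.42 and 0.245 with all libraries.

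In iron handling, *Tfrc*, the transferrin receptor, stood at 83.6, 83.9 and 85.4 CPM in the Ctrl shRNA libraries, against 146, 137 and 151 CPM in the knockdown libraries. It rose by 0.78 on the log2 scale (SE 0.07, adjusted p = 0.0375, edgeR) with all libraries and by 0.77 (adjusted p = 0.00273) without Ctrl shRNA replicate 2. Leaving out any one of the other 5 libraries kept the log2 fold change between 0.75 and 0.82 but ended the call. The adjusted p was then 0.151 and 0.343 without Ctrl shRNA replicates 1 and 3, and 0.535, 0.229 and 0.344 without knockdown replicates 1, 2 and 3 (edgeR). *Slc11a2*, a ferrous iron transporter, rose by 0.60 without Ctrl shRNA replicate 2 (SE 0.08, adjusted p = 0.0142, edgeR, and 0.123 with all libraries). The ferritin chains *Fth1* and *Ftl1* had values of 0.15 and -0.14 there (adjusted p = 0.337 and 0.460). With all libraries the values were -0.84 and -0.32 (adjusted p = 0.467 and 0.417), so that the sign of *Fth1* turned with that replicate. *Fth1*, like *Gpx4*, was highest in Ctrl shRNA replicate 2, at 3849 CPM against 963 to 1175 CPM elsewhere.

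Of the other outer membrane proteins, *Vdac1*, the remaining VDAC, had a log2 fold change of 0.05 with all libraries and 0.08 without Ctrl shRNA replicate 2 (adjusted p = 0.804 and 0.592, edgeR). In contrast to *Vdac2* and *Vdac3* it was not far from the other controls in that replicate, at 245 CPM against 226 and 223 CPM. *Tomm40*, the pore of the protein import complex, rose by 0.48 and *Tspo*, the translocator protein, fell by 0.72 on the log2 scale without that replicate (adjusted p = 0.0229 and 0.0444, edgeR), and with all libraries edgeR called neither (adjusted p = 0.276 and 0.246). DESeq2 with all libraries called *Tspo* (adjusted p = 0.0164) and not *Tomm40* (adjusted p = 0.0664), and voom without that replicate ended the call of *Tspo* (adjusted p = 0.0502, limma). *Tomm20*, an import receptor, had a value of -0.042 (adjusted p = 0.849), and of -0.69 with all libraries (adjusted p = 0.423).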

How the data were processed

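RNA-seq of 6 MLE12 samples was used, 3 with Ctrl shRNA and 3 with Idh3α and Slc25a1 shRNA, grouped by the sample titles. The authors deposited whole-number counts per Ensembl gene, without normalization, and FPKM values scaled to gene length and a library size of their own. The submitters' processing notes name mm10, HISAT2 2.0.5, StringTie 1.3.3b and featureCounts 1.5.0-p3, without roles, and the use of strand is not stated. Of 54409 genes shared with GENCODE M21 (GRCm38), 98.3% had the same start and end. The sequence and transcript lengths are from that annotation.

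Counts were filtered with filterByExpr, scaled with TMM and tested with the quasi-likelihood test of edgeR 4.0.16 (R 4.3.3), without covariates, at a Benjamini-Hochberg adjusted p of 0.05 over all genes. Intervals are 95%, from the standard error of the fit. The least abundant member, *Gch1*, had at least 284 counts in a library, few enough for counting error to add to its spread between samples. No columns were left unused (0).

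The members and lists were chosen with earlier results of these data known, and the lists were written from general knowledge. All members are named, with the listed genes called in either fit and the 2 most abundant of each list. Some genes that this rule names are not reported here. Further genes are those of like pattern, overlapping genes, pseudogenes, markers, and ones said to be named after their values were seen. Alternatives were each library left out, median-of-ratios factors, library size only, nuclear genes only, 2 other filters, the replicate block, DESeq2 1.42.0, and limma 3.58.1 on log2(FPKM + 1), log2(FPKM + 0.1) or voom values with quality weights. Those added after seeing the data were DESeq2 and voom without Ctrl shRNA replicate 2, and pseudogene counts added to their parents. Replicate numbers did not pair samples.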

Additional observations from a re-analysis of the deposited data

How the results depend on the processing

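None of the 9 genes was called under any of the 18 alternatives fitted to all members or the 2 with pseudogene counts added. The smallest adjusted p was 0.0550, for *Lpcat3* in limma with quality weights, where 2 of the 9 had an unadjusted p under 0.05. The signs of *Gpx4*, *Vdac3*, *Gch1*, *Acsl3* and *Dhodh* held throughout, but their sizes moved. *Gch1* went from -0.24 to -0.058 with library size only. *Acsl3* went from 0.12 to 0.30 with library size only and to 0.051 with quality weights. *Dhodh* went from 0.23 to 0.37 and 0.094 in the same 2 fits. Leaving out single libraries gave 0.075 to 0.16 for *Acsl3*, 0.097 to 0.32 for *Dhodh* and -0.28 to -0.21 for *Gch1*. For *Gpx4* and *Vdac3* it gave -1.10 to -0.16 and -1.09 to -0.14. The lower ends were those without Ctrl shRNA replicate 1, where the intervals lay below 0 (-2.04 to -0.16 and -2.06 to -0.13) and edgeR's adjusted p were 0.181 and 0.184 (unadjusted p = 0.0298 and 0.0332).

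*Acsl4* (-0.022) turned to 0.11 without Ctrl shRNA replicate 2, 0.02 without knockdown replicate 1, 0.19 with library size only, 0.10 with quality weights, and 0.12 and 0.11 with DESeq2 and voom without that control. Leaving out single libraries gave -0.10 to 0.11. *Vdac2* (-0.37) turned to 0.033, 0.0067, 0.040 and 0.032 without Ctrl shRNA replicate 2, with quality weights, and with DESeq2 and voom without that control (-0.54 to 0.033 over single libraries). *Lpcat3* turned to 0.021 without Ctrl shRNA replicate 3 (-0.19 to 0.021) and to 0.076 with library size only. *Aifm2* turned to 0.0031 and 0.0081 without Ctrl shRNA replicate 3 and knockdown replicate 2 (-0.085 to 0.0081), and to 0.14 with library size only. Library size only moved the median of all genes to 0.16, which is above the values of *Lpcat3* and *Aifm2* and below that of *Acsl4* under it. The causes were not tested.

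The number of genes called over the whole table, 9 higher and 1 lower, and of listed genes around the members, 1, became 0, 0 and 0 under the replicate block, whose correlations between same-numbered samples were -0.14, -0.07 and 0.05; only those with number 3 correlated best with each other. They became 1, 0 and 0 with library size only, 218, 135 and 12 with DESeq2, 1327, 971 and 20 with quality weights, 490, 330 and 16 with DESeq2 and 157, 89 and 9 with voom without Ctrl shRNA replicate 2. Lower genes numbered 3 without a filter and 3 in both FPKM fits. Leaving out single libraries gave 0 to 175 higher, 0 to 106 lower and 0 to 9 listed genes, the upper ends being those without Ctrl shRNA replicate 2.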
